A study of Mus musculus with 20 samples.

Results

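The heat shock and cold-inducible genes followed here were 10 of the 48795 genes measured in mouse embryonic hearts. They were chosen by name. Rbm3 and Cirbp are the cold-inducible RNA-binding protein genes, and Hspa1a, Hspa1b, Hspa8, Hsp90aa1, Hsph1, Dnajb1, Hspb1 and Hspd1 encode heat shock chaperones. Rbm3 was added for its lower level in the Dp1TybDyrk1a+/+/- hearts of these data. Its values in both comparisons that use those hearts are therefore given as a description, without a test. All 10 genes passed the filter on low values that left 15304 genes for testing.

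Whole hearts were taken at E13.5 from 20 embryos on a C57BL/6J background. There were 10 WT hearts, 5 Dp1Tyb hearts and 5 Dp1TybDyrk1a+/+/- hearts. Dp1Tyb mice are a model of Down syndrome that carries a duplication, Dp(16Lipi-Zbtb21), on mouse chromosome 16 whose ends are the genes Lipi and Zbtb21. Dp1TybDyrk1a+/+/- embryos carry the same duplication together with the null allele Dyrk1atm1Mla on the same chromosome, which brings the kinase gene Dyrk1a back to the normal number of functional copies. That line came from a single crossover and was kept apart from the Dp1Tyb line, so line and allele cannot be told apart here. The WT hearts came from litters of both lines, the labels do not say which, and all 10 entered both comparisons with WT, which therefore share their controls. The labels do not give the sex of the embryos.

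The comparisons ask which of these RNAs move with the duplication, and which move when the added functional Dyrk1a copy is removed. Values are normalized counts on the log2 scale as deposited, so a difference of 1 is a doubling of the deposited value. The transformation behind them is not given, so differences in RNA may be larger than those printed. Values after ± are SDs between hearts unless called SE. Changes were tested with limma over all 15304 genes, and a gene was called where the Benjamini-Hochberg adjusted P was under 0.05. The depth of the libraries is unknown, so the precision of a value rests on the spread between hearts. Hearts are named by the running number in their labels.

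Chaperones bind unfolded proteins. In the cytosol, heat shock factor 1 (Hsf1) drives their genes when unfolded protein builds up. Rbm3 and Cirbp behave the other way round. Their RNAs are known to rise when cells are cooled mildly and to fall when they are warmed, and both proteins bind RNA and are linked to translation and to the daily rhythm of body temperature. Several heat shock genes, Hspa8 and Hspd1 among them, are strongly active without stress, whereas Hspa1a and Hspa1b are the classic stress-induced forms.

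Hspa1a and Hspa1b are neighbours on chromosome 17, at chr17:34969359-34972156 and chr17:34956429-34959238, and are near-identical copies. Their sequences are shown because the similarity limits how far their values can be told apart. RefSeq promoter sequence, build GRCm38.p6, was found for 7 of the 10 genes, and Rbm3, Hspa8 and Hsp90aa1 had no entry. Over the 250 bases before their starts, 247 bases of Hspa1a and Hspa1b were equal. The last 60 of these bases are printed from 5′ to 3′ on the minus strand, with the 1 base that differs in capitals.
Hspa1a, chr17:34972157-34972216: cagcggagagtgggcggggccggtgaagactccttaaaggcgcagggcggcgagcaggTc
Hspa1b, chr17:34959239-34959298: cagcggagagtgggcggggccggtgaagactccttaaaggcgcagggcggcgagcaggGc

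The coding sequences from GENCODE, of 1923 and 1926 bases, aligned with 8 mismatches and 3 gap columns, an identity of 99.4%. The longest identical run was 638 bases. The stretch from coding base 126 to 186 is shown because it holds 1 of the 8 mismatches, in capitals.
Hspa1a: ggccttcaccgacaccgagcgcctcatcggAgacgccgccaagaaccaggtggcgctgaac
Hspa1b: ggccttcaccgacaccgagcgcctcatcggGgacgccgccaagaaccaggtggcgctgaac

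Reads from the identical coding runs would match both genes, and the untranslated parts were not compared, so how the values were divided between Hspa1a and Hspa1b is uncertain, and their sum is given beside them. Overlapping annotation touches other genes of the group. Rbm3os lies antisense to Rbm3, whose pseudogene Rbm3-ps is on chromosome 1, and Hspd1 shares its start region with Hspe1. Whether strand was used in the counting is not given in the sources used here. Rbm3os was below the filter, with log2 values between 2.65 and 2.71 in the 20 hearts.

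The hearts as a whole were checked before the member genes. Of the marker lists fixed for this tissue, all 10 cardiomyocyte markers passed the filter, and their summed log2 level was between 18.46 and 18.90. Liver markers were close to absent, with a sum between 4.96 and 5.30 over the 2 of 4 that passed. Dyrk1a RNA was 11.37 ± 0.04 in WT, 11.69 ± 0.04 in Dp1Tyb and 11.76 ± 0.06 in Dp1TybDyrk1a+/+/- hearts. The table has 1 value per gene and does not separate RNA of the null allele, so it does not check that label. Red blood cell markers varied most, between 16.47 and 18.71 among the WT hearts. Xist, the RNA of the inactive X chromosome, was high in 3 of 10 WT, 4 of 5 Dp1Tyb and 1 of 5 Dp1TybDyrk1a+/+/- hearts, so embryo sex was unevenly spread. Ddx3y, a Y-linked gene, read 7.41 to 7.89 in the hearts with high Xist and 10.35 to 10.54 in the others. Differences on the deposited scale may thus be smaller than those in RNA. Dp1TybDyrk1a+/+/- heart A15 had the lowest Hspd1 and Cirbp of all 20 hearts, and values without it are given where they matter.

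Rbm3, at chrX:8138975-8145880, was lower in every heart that carried the duplication. In the WT hearts its log2 level was 12.16 at the lowest, 12.22 at the median and 12.28 at the highest. The Dp1Tyb hearts read 11.99 (A12), 12.06 (A3), 12.05 (A4), 11.97 (A6) and 11.93 (A7). The Dp1TybDyrk1a+/+/- hearts read 11.99 (A14), 11.96 (A15), 12.15 (A17), 12.07 (A18) and 12.11 (A9). Neither duplicated group overlapped the WT hearts, and the 2 duplicated groups overlapped each other. For the Dp1TybDyrk1a+/+/- hearts this is tied to how Rbm3 was chosen and is no separate result.

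In Dp1Tyb hearts Rbm3 fell by 0.22 on the log2 scale (SE 0.03, 95% interval -0.29 to -0.16, limma adjusted P = 0.000114), or by 14.4% of the deposited value. The WT hearts in this comparison are those that also served when Rbm3 was chosen, so neither this P nor the next is independent of that choice. An exact two-sided permutation test of the 15 hearts gave P = 0.000333, the smallest that its 3003 regroupings allow. The median over all genes was -0.0019, and 30 genes including Rbm3 itself were at or below its change. Of all genes tested, 3.08% were called in this comparison, 1.27% were called as lower, and in 1.12% every Dp1Tyb heart lay below every WT heart.

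The fall was seen in each sequencing lane. It was 0.20 in lane 3, 0.23 in lane 6 and 0.26 in lane 7, although lane 7 holds a single Dp1Tyb heart. With the level of Y-linked RNA in the fit, the change was -0.21 (adjusted P = 0.00169). With any 1 heart removed the change stayed between -0.24 and -0.21, and Rbm3 was called each time. In these bulk samples a smaller share of cells that make Rbm3 and less Rbm3 RNA per cell cannot be told apart.

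In Dp1TybDyrk1a+/+/- hearts Rbm3 was lower than in WT by a mean of 0.16, or 10.8% of the deposited value, without a test because this contrast chose the gene. The difference was -0.20 in lane 3, -0.13 in lane 6 and -0.18 in lane 7. It was -0.14 without heart A15. In this comparison 0.712% of all genes were called, and in 0.0784% every Dp1TybDyrk1a+/+/- heart lay below every WT heart. These shares are background and do not measure how unusual a gene chosen by this contrast is. The mean of the Dp1Tyb hearts was lower than that of the Dp1TybDyrk1a+/+/- hearts by 0.06, with A14 and A15 inside the Dp1Tyb range.

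**Figure D1:**
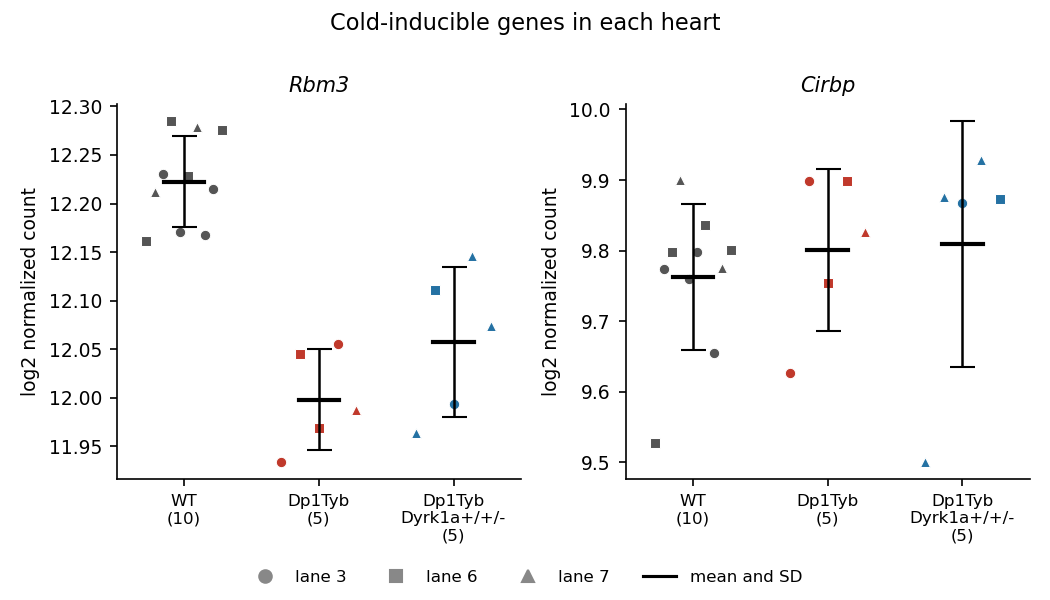
Log2 normalized counts of Rbm3 (left) and Cirbp (right) in each heart, with marker shape for the sequencing lane and black lines for the mean and SD of each genotype. For Rbm3 the lowest WT heart, at 12.16, lies above the highest heart with the duplication, at 12.15. For Cirbp the genotypes overlap, and WT heart A10 and Dp1TybDyrk1a+/+/- heart A15 lie lowest, at 9.53 and 9.50.

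Cell type markers were also compared between genotypes, and their summed levels overlapped those of WT. Among Dp1Tyb hearts, 6 of 6 fibroblast and cushion markers had a mean above WT, with a summed level of 16.57 to 16.78 against 16.24 to 16.74 in WT, and 7 of 10 cardiomyocyte markers had a mean below WT, at 18.46 to 18.66 against 18.49 to 18.90. In Dp1TybDyrk1a+/+/- hearts, where Rbm3 was also lower, 2 of 6 fibroblast and cushion markers and 7 of 10 cardiomyocyte markers had a mean above WT, with summed levels of 16.31 to 16.79 and 18.58 to 18.78. All 6 endothelial markers had a mean above WT in both groups, with summed levels of 14.06 to 14.20 in Dp1Tyb and 14.13 to 14.19 in Dp1TybDyrk1a+/+/- hearts, against a mean of 14.09 ± 0.05 (SD, n = 10) and a highest value of 14.16 in WT. By limma none of these markers was called in either comparison. The fibroblast, cardiomyocyte and endothelial markers with an unadjusted P under 0.05 numbered 3, 3 and 1 in Dp1Tyb and 0, 1 and 1 in Dp1TybDyrk1a+/+/- hearts. Of all genes tested, 15.6% in Dp1Tyb and 9.64% in Dp1TybDyrk1a+/+/- versus WT had such a P. The part of these markers in the Rbm3 result was not tested.

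Hearts with high and low Xist were set side by side within each genotype. The Rbm3 mean was 12.21 in the 3 WT hearts with high Xist and 12.23 in the 7 with low Xist. It was 12.01 in 4 Dp1Tyb hearts with high Xist and 11.97 in the 1 with low Xist. Among Dp1TybDyrk1a+/+/- hearts it was 11.99 in the 1 with high Xist and 12.07 in the 4 with low Xist. With 1 heart on one side in each duplicated group, these values cannot separate embryo sex from the difference between the duplicated groups.

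The genes around Rbm3 on the X chromosome were examined next. By limma, none of the 10 tested genes nearest to Rbm3 was called in any comparison, and their log2 fold changes in Dp1Tyb hearts were between -0.07 and 0.05. Over the 549 X-linked genes tested, 4 were called as higher and 17 as lower in Dp1Tyb than in WT. The called X-linked genes were 3.83% of those tested, against 3.08% of all genes, and the lower ones, Rbm3 among them, 3.10%, against 1.27%. Embryo sex was unevenly spread between these groups. With the Y-linked level in the fit, lower calls over all genes went from 194 to 63, and the X-linked share in that fit is not given here. In Dp1TybDyrk1a+/+/- versus WT 1 X-linked gene was called as higher and 2 as lower, or 0.546% against 0.712% of all genes. The lower ones include Rbm3, which was chosen by this contrast, so this count and share are no test of it. Usp11, an X-linked ubiquitin protease gene, was among the lower ones in both comparisons with WT, by 0.15 (adjusted P = 0.000516) in Dp1Tyb and by 0.16 (adjusted P = 0.000502) in Dp1TybDyrk1a+/+/- hearts.

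The genes whose levels were most like that of Rbm3 over the 20 hearts were Smim36, Psat1, Bmi1, Dusp26 and Heca, with Pearson correlations between 0.79 and 0.83. Psat1 encodes an enzyme of serine synthesis and Bmi1 a Polycomb protein. The lowest correlations were with Itsn1 (-0.90) and Prdm15 (-0.89), both of them genes of the duplicated stretch on chromosome 16. The hearts share genotype and normalization, so these values are a description.

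Cirbp, at chr10:80165990-80172786, the second cold-inducible gene, showed no such difference. Its WT hearts ranged from 9.53 through a median of 9.79 to 9.90. The Dp1Tyb hearts read 9.83 (A12), 9.90 (A3), 9.90 (A4), 9.75 (A6) and 9.63 (A7). The Dp1TybDyrk1a+/+/- hearts read 9.87 (A14), 9.50 (A15), 9.93 (A17), 9.88 (A18) and 9.87 (A9). All 3 groups overlapped, and the differences were 0.04 in Dp1Tyb versus WT (95% interval -0.09 to 0.17, adjusted P = 0.841 in limma) and 0.05 in Dp1TybDyrk1a+/+/- versus WT (-0.09 to 0.18, adjusted P = 0.828). A fall of the size seen for Rbm3 in Dp1Tyb hearts lies outside the first interval.

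Cirbp varied more between hearts of the same genotype than most genes. Its SD within genotypes was 0.13, larger than that of 93.1% of 2566 genes of similar level, whereas the SD of Rbm3, 0.06, was larger than that of 37.3% of 727 genes. The low hearts were WT A10, at 9.53, and Dp1TybDyrk1a+/+/- A15, at 9.50. The genes most like Cirbp over the 20 hearts were Gnb4, Rrp36, Dmap1, Mrfap1 and Npm3, with correlations of 0.85 to 0.88, and the least like it were Gm42547 (-0.91) and Hgs (-0.88). Rrp36 and Npm3 encode nucleolar proteins.

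The heat shock genes differed widely in level but little between genotypes. Per kilobase of the canonical GENCODE transcript, the mean over 20 hearts was 12850 normalized counts for Hspa8, 4763 for Hspd1, 4326 for Hsp90aa1 and 3068 for Hspb1. It was 220.1 for Dnajb1, 211.0 for Hsph1, 25.4 for Hspa1b and 19.8 for Hspa1a. The transcripts counted by the authors may differ in length, so near neighbours in this order, such as Dnajb1 and Hsph1, are not ranked. Of the 9 members other than Rbm3, limma called 0 in Dp1Tyb versus WT, beside 3.08% of all genes. By limma 1 of them, Hsp90aa1, had an unadjusted P under 0.05, beside 15.6% of all genes. Hsp90aa1 was also under 0.05 in the exact permutation test. Rbm3 is left out of these counts because it was chosen against the same WT hearts.

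Hspa1a and Hspa1b, the stress-induced Hsp70 genes, were at the low end of the group. Hspa1a was 5.89 ± 0.08 in WT, 5.87 ± 0.08 in Dp1Tyb and 5.85 ± 0.05 in Dp1TybDyrk1a+/+/- hearts. Hspa1b was 6.15 ± 0.09, 6.19 ± 0.07 and 6.13 ± 0.06 in the same order. The log2 of their summed counts was 7.03 ± 0.06 in WT and 7.04 ± 0.06 in Dp1Tyb hearts, and from 6.96 to 7.02 in Dp1TybDyrk1a+/+/- hearts. The 3 genotypes overlapped for both genes and for their sum, and the highest single value of Hspa1b was 6.29, in a WT heart.

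Hspa8, at chr9:40801276-40805202, encodes the constitutive Hsp70 that also strips clathrin coats. Its WT hearts had a lowest value of 14.83, a median of 14.90 and a highest value of 15.02. Dp1Tyb hearts ranged from 14.80 to 15.01 and Dp1TybDyrk1a+/+/- hearts from 14.89 to 14.97. The groups overlapped, with a Dp1Tyb difference from WT of -0.03 (95% interval -0.11 to 0.05).

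Hsp90aa1, at chr12:110691036-110696395, encodes the inducible cytosolic Hsp90. It had the lowest adjusted P among the heat shock genes in both comparisons of Dp1Tyb hearts and did not pass the threshold. Its WT hearts read 13.85 at the lowest, 13.91 at the median and 13.99 at the highest. The Dp1Tyb hearts read 13.79 (A12), 13.82 (A3), 13.80 (A4), 13.86 (A6) and 13.90 (A7). The Dp1TybDyrk1a+/+/- hearts read 13.94 (A14), 13.84 (A15), 13.98 (A17), 13.94 (A18) and 13.98 (A9).

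For Hsp90aa1, 3 of 5 Dp1Tyb hearts lay below every WT heart, and the same number lay below every Dp1TybDyrk1a+/+/- heart. The difference of Dp1Tyb from WT was -0.08 (SE 0.03, 95% interval -0.14 to -0.02, limma adjusted P = 0.148). The difference of Dp1Tyb from Dp1TybDyrk1a+/+/- was -0.10 (SE 0.03, 95% interval -0.17 to -0.04, adjusted P = 0.107). Exact permutation tests of this gene alone gave unadjusted P = 0.002 and P = 0.0238. Both differences were negative in all 3 lanes. Without heart A15 the adjusted P were 0.0482 and 0.033, and both differences were called. They were also called with weights per heart, at adjusted P of 0.0276 and 0.00571. With quantile normalization both differences shrank to -0.05 and the adjusted P rose to 0.429 and 0.424, the highest of all fits. Hsp90ab1, the constitutive partner of Hsp90aa1, was 15.45 in WT, 15.43 in Dp1Tyb and 15.48 in Dp1TybDyrk1a+/+/- hearts, and was not called.

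**Figure D2:**
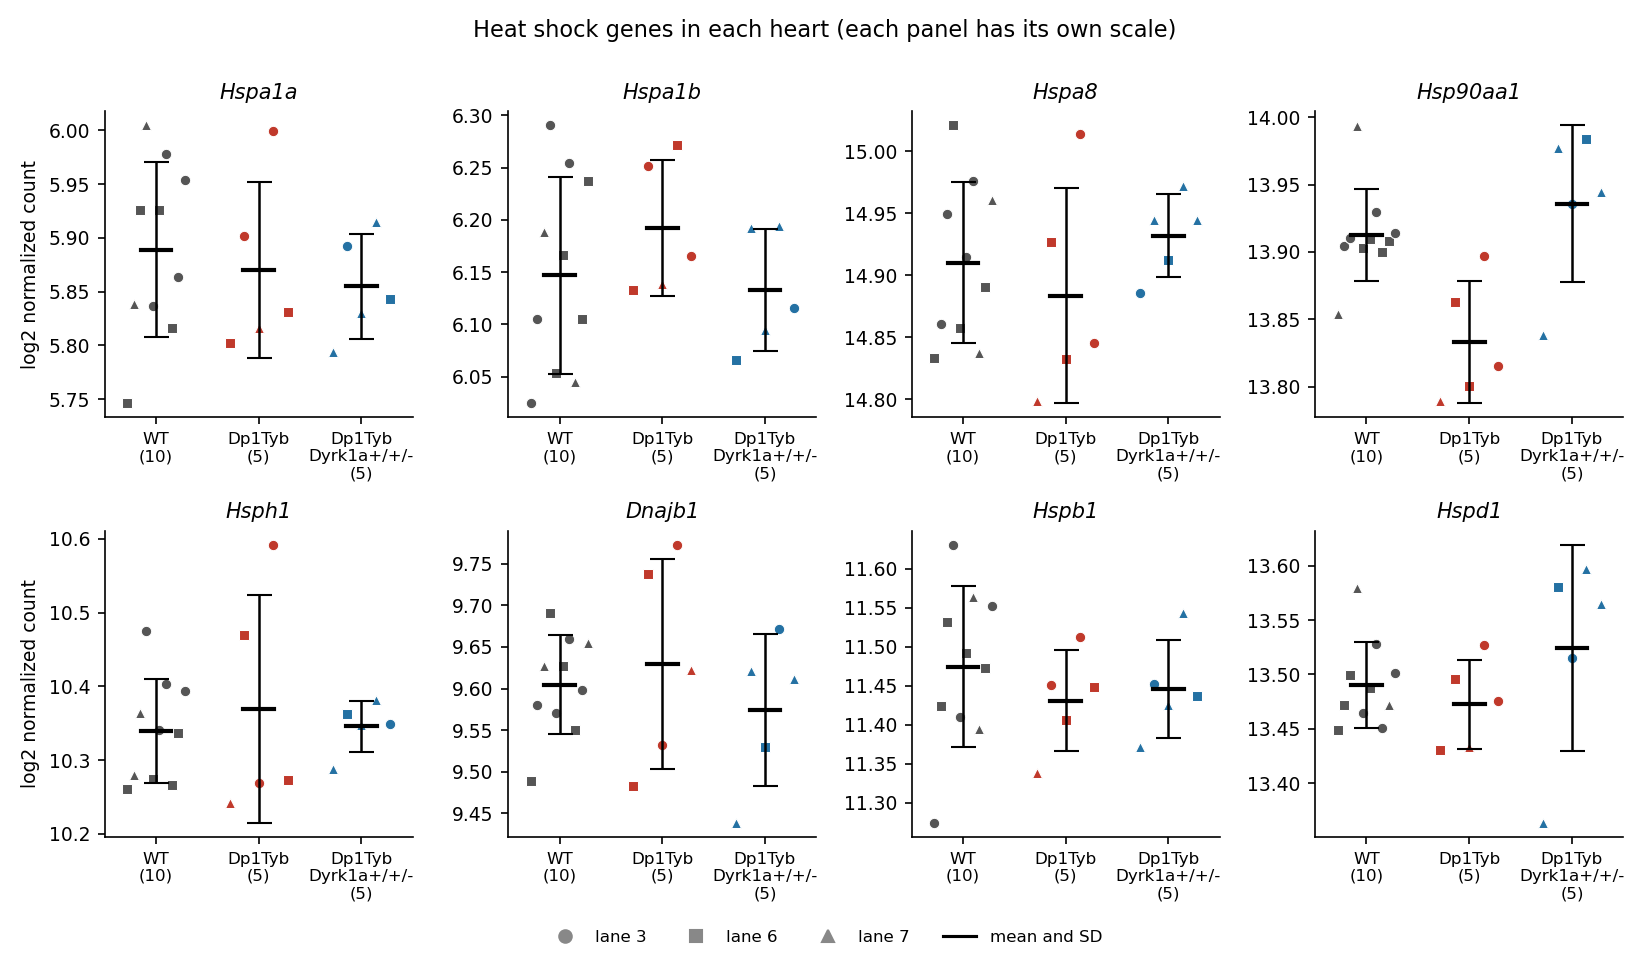
Log2 normalized counts of the 8 heat shock genes in each heart, 1 panel per gene with its own scale. Marker shape gives the lane and black lines the mean and SD of each genotype. The genotypes overlap in every panel, and for Hsp90aa1 3 of 5 Dp1Tyb hearts lie below the lowest WT heart, at 13.85.

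Hsph1 and Dnajb1 encode cofactors of Hsp70, a nucleotide exchange factor and a J-domain protein. Hsph1, at chr5:149616843-149636498, ranged from 10.26 to 10.47 in WT hearts with a median of 10.34. The Dp1Tyb hearts read 10.24 (A12), 10.27 (A3), 10.27 (A4), 10.47 (A6) and 10.59 (A7), which is a wider spread, with an SD of 0.15 against 0.07 in WT. Dnajb1, at chr8:83608175-83612653, was highest in the same pair of Dp1Tyb hearts, at 9.74 in A6 and 9.77 in A7, and lowest of that group in A4, at 9.48. Neither gene differed between genotypes past the threshold. The difference of Dp1Tyb from WT was 0.03 for Hsph1 (95% interval -0.07 to 0.13) and 0.02 for Dnajb1 (-0.07 to 0.12).

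Dp1Tyb heart A7 stood highest for the heat shock genes on average. Of the 8 genes, 7 were above their mean over all hearts in A7, with an average deviation of 0.10. A7 also had the lowest Rbm3 of the 20 hearts. Within genotypes no pair of Rbm3 with these 8 genes passed the permutation test given below. WT heart A5 had 8 of 8 above the mean, with an average of 0.08 and a deviation of 0.04 for Rbm3. In Dp1Tyb heart A4, 0 of 8 were above it, with an average of -0.07 and a deviation of -0.08 for Rbm3. High hearts were thus found in more than 1 genotype.

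The genes most like Hsph1 over the 20 hearts were Dnajc3, Nop2, Xbp1, Zbed4 and Eaf1, with correlations of 0.80 to 0.85. Dnajc3 is a chaperone cofactor of the endoplasmic reticulum and Xbp1 a transcription factor of its stress response. The least like it were Zcchc24 (-0.88) and Rab17 (-0.76).

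Hspb1, at chr5:135887919-135889563, is a small heat shock protein gene of muscle and heart. It was 11.47 ± 0.10 in WT, 11.43 ± 0.06 in Dp1Tyb and 11.45 ± 0.06 in Dp1TybDyrk1a+/+/- hearts. Hspd1, at chr1:55077833-55088243, encodes the mitochondrial chaperonin Hsp60 and was 13.49 ± 0.04, 13.47 ± 0.04 and 13.52 ± 0.10 in the same order. Heart A15 had the lowest Hspd1 value, at 13.36. Both genes overlapped between genotypes.

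Over the other comparisons the members stayed below the threshold. In Dp1TybDyrk1a+/+/- versus WT, limma called 0 of the 9 members tested, against 0.712% of all genes. By limma 0 had an unadjusted P under 0.05, beside 9.64% of all genes, and 0 did in the exact permutation test. The log2 fold changes of these members were between -0.03 and 0.05, with a median of 0.01 beside -0.0030 over all genes. In Dp1Tyb versus Dp1TybDyrk1a+/+/-, limma called 0 of 9, against 1.16% of all genes. Hsp90aa1 alone had an unadjusted P under 0.05 in limma, beside 18.5% of all genes, and in the permutation test. In Dp1Tyb versus WT the median over the 9 members other than Rbm3 was -0.02 beside -0.0019 over all genes.

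**Figure D3:**
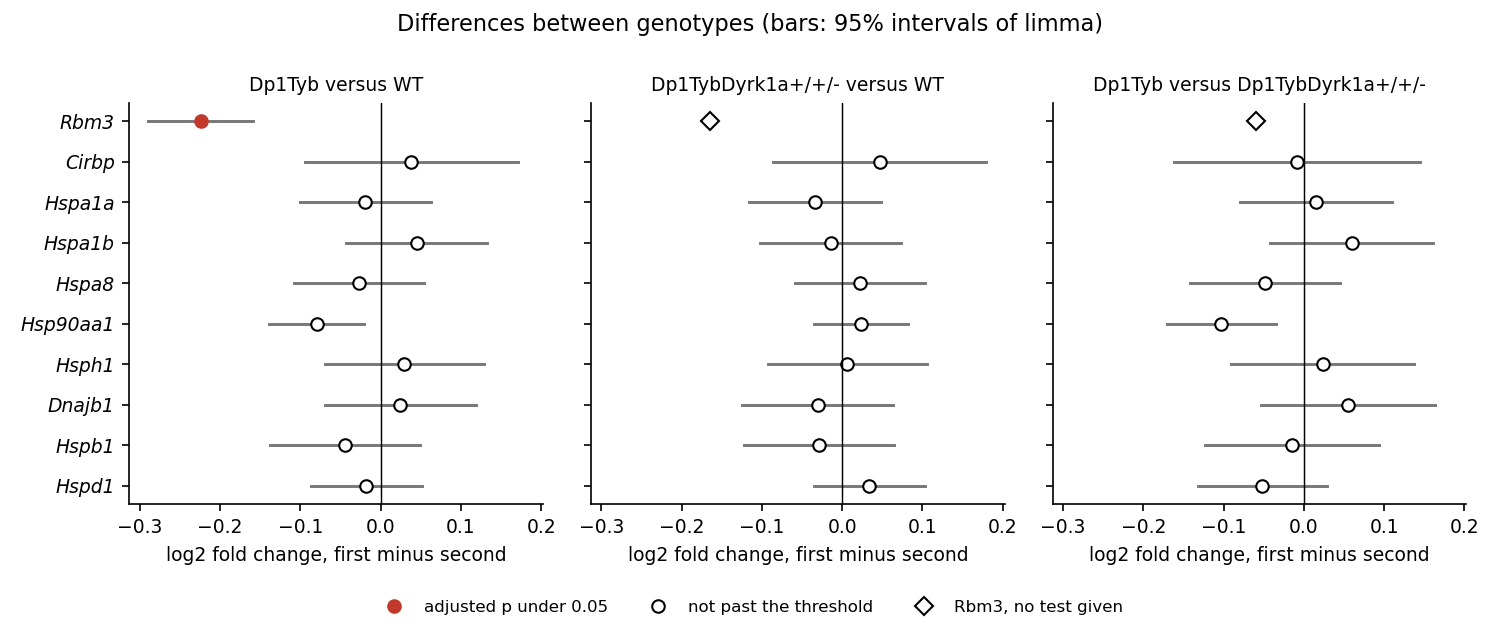
Log2 fold changes of the 10 genes in the 3 comparisons, first genotype minus second, with 95% intervals from limma. The filled circle marks the only member past an adjusted P of 0.05, Rbm3 in Dp1Tyb versus WT at -0.22. Rbm3 was chosen against the same WT hearts, so this call is not independent of that choice. Diamonds mark Rbm3 where no test is given. The intervals of Hsp90aa1 lie below 0 in both comparisons of Dp1Tyb hearts, without passing the adjusted threshold.

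Pairs of these genes were also compared between hearts of the same genotype. After each value was taken as a deviation from the mean of its genotype, 3 of 45 pairs passed a permutation test within genotypes at a Benjamini-Hochberg adjusted P under 0.05, of which 2 were positive and 1 negative. All hearts share the normalization, and deviations of 20 hearts enter each value. How often pairs of other genes pass was not tested.

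Cirbp and Hspa8 moved in opposite directions. Pearson's r was -0.73 (permutation P = 5e-05, adjusted P = 0.00225) and Spearman's rho was -0.66 (permutation P = 0.00211, adjusted P = 0.0317). Without the hearts farthest from the median of Cirbp, A10 and A15, r was -0.76. Within lanes 3, 6 and 7 it was -0.95, -0.92 and -0.45, and over the 10 WT hearts alone it was -0.86.

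Hsp90aa1 and Hspd1 moved in the same direction. Pearson's r was 0.86 (permutation P = 0.00018, adjusted P = 0.00405) and rho was 0.73 (permutation P = 0.00111, adjusted P = 0.025). Without A15 and A20 r was 0.71, and within the lanes it was 0.42, 0.91 and 0.93. Over the WT hearts alone it was 0.64.

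Hsp90aa1 and Hsph1 also moved together, with r of 0.66 (permutation P = 0.00105, adjusted P = 0.0158) and rho of 0.80 (permutation P = 0.00025, adjusted P = 0.0113). Without A15 and A20 r was 0.78, and within the lanes it was 0.92, 0.79 and 0.77. Over the WT hearts alone it was 0.44. Hspb1 and Hspd1 passed by rho alone, at 0.63 (permutation P = 0.00349, adjusted P = 0.0393). Hspa8 and Hsph1 had r of 0.67 and rho of 0.69 and did not pass (adjusted permutation P = 0.0789 and 0.051). Over the WT hearts alone their r was 0.44. Rbm3 and Cirbp, the cold-inducible pair, had r of 0.58 and rho of 0.59, which did not pass after adjustment (adjusted permutation P = 0.0858 and 0.0744). Their r was 0.40 without A15 and A17 and 0.17 over the 10 WT hearts alone. Within lanes 3, 6 and 7 it was 0.60, 0.36 and 0.76. Hspa1a and Hspa1b had r of -0.08.

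**Figure D4:**
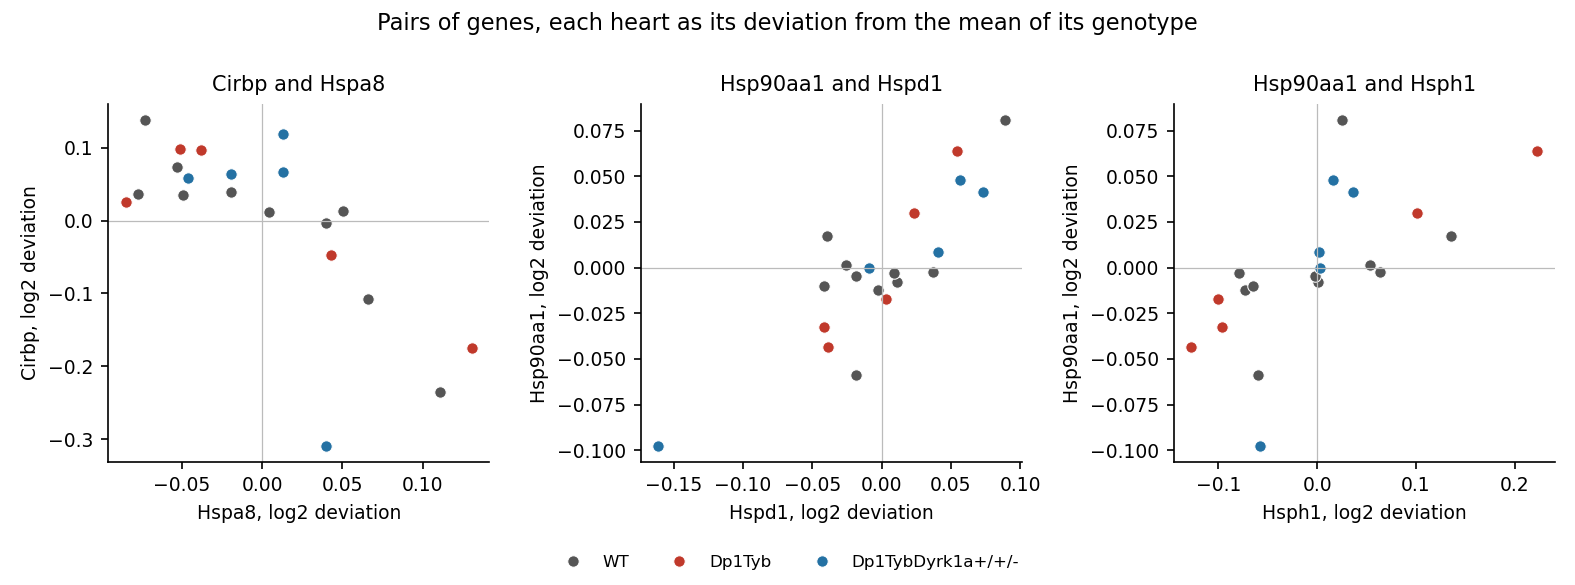
Deviation of each heart from the mean of its genotype, on the log2 scale, for Cirbp against Hspa8, Hsp90aa1 against Hspd1 and Hsp90aa1 against Hsph1, with color for genotype. The first pair slopes downward (r = -0.73) and the other pairs slope upward (r = 0.86 and 0.66), and Dp1TybDyrk1a+/+/- heart A15 is the lowest point for Cirbp, Hsp90aa1 and Hspd1.

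Other genes of the same pathways were given from fixed lists. Of all genes, 3.08% were called in Dp1Tyb versus WT and 0.712% in Dp1TybDyrk1a+/+/- versus WT. Of 36 other cytosolic and nuclear chaperone genes, 1 was called in each comparison with WT, and it was Cct8 both times. Cct8 encodes a subunit of the chaperonin that folds actin and tubulin and lies in the duplicated stretch, and it rose by 0.40 in Dp1Tyb (adjusted P = 2.95e-08) and by 0.40 in Dp1TybDyrk1a+/+/- hearts (adjusted P = 1.87e-08). Of 21 endoplasmic reticulum chaperones and stress genes tested, 1 was called in each comparison with WT, and it was Hspa13, an Hsp70 relative in the same stretch. Hspa13 rose by 0.39 (adjusted P = 5.06e-10) and 0.34 (adjusted P = 2.48e-09).

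None of the 11 mitochondrial chaperones and proteases, the 6 small heat shock proteins tested, the 3 tested genes of the heat shock factor list (Hsf1, Hsf2 and Hsbp1) or the 7 cold shock domain genes was called in any comparison by limma. In Dp1Tyb versus WT the numbers with an unadjusted P under 0.05 were 0, 1, 1 and 2, beside 15.6% of all genes. In Dp1Tyb versus Dp1TybDyrk1a+/+/- they were 1, 1, 1 and 3, beside 18.5%. In Dp1TybDyrk1a+/+/- versus WT none of the genes in these lists had an unadjusted P under 0.05, beside 9.64%. The most strongly expressed gene of each list was Hspa9, the mitochondrial Hsp70, then Hspb7, a cardiac small heat shock protein, then Hsbp1, which binds heat shock factors, and Ybx1, a translation regulator. Hspa9 was 13.38 in WT, 13.34 in Dp1Tyb and 13.41 in Dp1TybDyrk1a+/+/- hearts, and Hspb7 was 13.62, 13.52 and 13.64. Hsbp1 was 10.86, 10.84 and 10.95. Ybx1 was 13.72 in WT, 13.62 in Dp1Tyb and 13.79 in Dp1TybDyrk1a+/+/- hearts. In the order of the lists, 6 of 11, 3 of 6, 2 of 3 and 6 of 7 genes had a mean below WT in Dp1Tyb hearts. In Dp1TybDyrk1a+/+/- hearts they were 7 of 11, 1 of 6, 0 of 3 and 2 of 7. The medians of the cold shock domain genes were -0.05 and 0.02, beside -0.0019 and -0.0030 over all genes. The share of all genes with a mean below WT is not given here.

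A list of 7 other genes with known or proposed links to mild cooling or Rbm3 is not an established cooling response. Of these 7, limma called 1 in Dp1Tyb versus WT, where 3.08% of all genes were called, and 0 in the other comparisons. Those with an unadjusted P under 0.05 numbered 2 in Dp1Tyb versus WT, 1 in Dp1TybDyrk1a+/+/- versus WT and 5 in Dp1Tyb versus Dp1TybDyrk1a+/+/-, beside 15.6%, 9.64% and 18.5% of all genes. In the last comparison 6 of 7 were below 0, with a median of -0.08 beside 0.0028 over all genes. Rbmx, an X-linked splicing factor gene related to Rbm3, fell by 0.14 in Dp1Tyb versus WT (adjusted P = 0.0114) and was -0.03 in Dp1TybDyrk1a+/+/- versus WT (adjusted P = 0.733). The difference between the duplicated groups was -0.10 and did not pass (adjusted P = 0.12). Of 17 clock genes tested, limma called 1 in Dp1Tyb versus WT, beside 3.08% of all genes, and none in the other comparisons. The called clock gene was Nr1d2, a repressor of the clock, which fell by 0.15 (adjusted P = 0.0115). Embryo sex was unevenly spread between Dp1Tyb and WT hearts, and Rbmx and Nr1d2 are not given here with the Y-linked level in the fit. None of 19 immediate early genes and none of 14 hypoxia response genes tested was called in any comparison by limma, with 1 and 0 at an unadjusted P under 0.05 in Dp1Tyb versus WT, 1 and 1 in Dp1TybDyrk1a+/+/- versus WT, and 2 and 1 between the duplicated groups. Jund, the immediate early gene of the highest level, was 11.24 in WT, 11.27 in Dp1Tyb and 11.19 in Dp1TybDyrk1a+/+/- hearts, and Ldha, the lactate dehydrogenase gene that hypoxia raises, was 14.23, 14.27 and 14.23.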

How the data were processed

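mRNA libraries of 20 whole hearts were sequenced. The values deposited by the authors are normalized counts on the log2 scale, from -2.31 to 18.97, 1 per Ensembl gene and heart. The submitters' processing notes list Trimmomatic 0.36, STAR 2.5.2a, RSEM 1.2.31, DESeq, DESeq2 and GRCm38. The transformation and strand setting are not given in the sources used here. Values of weak genes lie close to their mean. Count models cannot be run on such values, so limma 3.58.1 in R 4.3.3 (lmFit with a mean for each genotype over the 20 hearts, then eBayes with trend) was used for the 15304 genes whose normalized count averaged 10 or more, and was tested on simulated data. P was adjusted by Benjamini-Hochberg over these genes. Single genes were also tested by permuting hearts exactly and on both sides, and pairs of genes by 99999 permutations within genotypes. Read totals were not analysed here, so depth is unknown and no counting interval is given. Genes were named with GENCODE M39, and positions are from RefSeq GRCm38.p6. Values were handled with pandas 2.3.3, numpy 2.4.6 and scipy 1.17.1 in Python 3.11.15.

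The member genes and lists were chosen with earlier results of these data known. The genes named were the 10 members, Dyrk1a, Usp11, the genes with the 5 highest and 2 lowest correlations with Rbm3, Cirbp and Hsph1, and, of each list, up to 3 called genes per direction or the most strongly expressed gene. Hsp90ab1 and Rbm3os are named beside their partners, and Ddx3y beside Xist. Alternatives covered filters, normalization, settings of limma, weights per heart, lane, Y-linked level, the hearts in the fit, leaving out each heart, and adding Hspa1a to Hspa1b.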

Additional observations from a re-analysis of the deposited data

Results flagged for a closer look

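Of 30 groups of values (10 genes in 3 genotypes), 1 had a heart set apart from the others of its genotype. Cirbp in Dp1TybDyrk1a+/+/- heart A15 was 9.50, and the gap to the next heart was 0.858 of the range of the group, above the critical value of 0.71 for 5 hearts. Chance alone sets apart about 1 in 20 such groups. The difference of Cirbp between Dp1TybDyrk1a+/+/- and WT was 0.12 without this heart and 0.05 with it, and the adjusted P was over 0.05 both times.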

How the results depend on the processing

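The call of Rbm3 in Dp1Tyb versus WT held in all 11 other fits and in all 20 fits without a heart, with adjusted P between 1.15e-05 and 0.00169. Each of these fits uses WT hearts that served in choosing Rbm3, so they are no independent test of it. With Rbm3 counted in Dp1Tyb versus WT alone, members called stayed at 1 (Rbm3), 0 and 0 in the 3 comparisons except with weights per heart, which called 2 in Dp1Tyb versus WT and 2 in Dp1Tyb versus Dp1TybDyrk1a+/+/- (Hsp90aa1 in both, with Rbm3 in the first and Hspd1 in the second), and without heart A15. Leaving out single hearts gave 1 to 2, 0 and 0 to 1.

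Counts over all genes moved more. For Dp1Tyb versus WT, 471 genes were called, and 1422 with weights per heart, 214 with the Y-linked level in the fit, 779 with the hearts of both groups only, and 266 to 959 without single hearts, the lowest without A4 and the highest without A15. Without Dp1Tyb hearts A12, A3 or A6 it was 303, 300 and 293. For Dp1TybDyrk1a+/+/- versus WT, 109 were called, 341 with weights and 88 to 158 without single hearts. For Dp1Tyb versus Dp1TybDyrk1a+/+/-, 178 were called (65 higher, 113 lower), and 273 at a mean count of at least 100, 76 without a filter, 1247 with weights, 29 with lane, 9 with the Y-linked level, 3 with the hearts of both groups only, and 30 to 404 without single hearts, the lowest without A4 and the highest without A10. Removing any Dp1Tyb heart, WT heart A1, A2, A8, A10 or A16, or Dp1TybDyrk1a+/+/- heart A9, A14, A17 or A18 moved this count by over 1.5 times. Centring each heart on its median gave 48 higher and 177 lower there. The cause of these shifts was not tested.

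Small differences that no fit called changed sign. Under quantile normalization Hspa8 was 0.0055 in Dp1Tyb versus WT, Hspd1 -0.0075 in Dp1TybDyrk1a+/+/- versus WT, and Hspa1a -0.0062 and Hspb1 0.016 in Dp1Tyb versus Dp1TybDyrk1a+/+/-. In that last comparison Hspa1a was -0.00046 with weights and Hspb1 0.0200 with the Y-linked level. Hspa1a and Hspa1b added together gave 0.015 in Dp1Tyb versus WT. Without single hearts, the ranges in Dp1Tyb versus WT were -0.011 to 0.061 for Dnajb1 and -0.026 to 0.061 for Hsph1. In Dp1TybDyrk1a+/+/- versus WT they were -0.055 to 0.0033 for Dnajb1, -0.030 to 0.0022 for Hspa1b and -0.0028 to 0.021 for Hsph1. In Dp1Tyb versus Dp1TybDyrk1a+/+/- they were -0.085 to 0.035 for Cirbp, -0.017 to 0.032 for Hspa1a, -0.035 to 0.0095 for Hspb1 and -0.032 to 0.055 for Hsph1.

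No paired analysis was possible because the running number of each heart is unique and the labels do not tie hearts to litters. Depth is unknown, each duplicated group has 5 hearts, and sex and lane are unevenly spread over the groups.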
